A study of Mus musculus with 9 samples.

Results

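The 10 genes described here handle iron in the mouse cell: the ferroxidase gene Cp and the haemoglobin-binding protein gene Hp, the ferritin genes Fth1 and Ftl1 with the ferritin receptor gene Ncoa4, the uptake genes Tfrc, Slc11a2 and Slc11a1, the export gene Slc40a1 and the haem breakdown gene Hmox1. They were found by gene name among the 40993 genes of the expression table, and each name matched 1 gene. The genes were chosen by name with results of these data in view, Cp and Hp on their FPKM at 100 µg/ml against non-treated cells and against 10 µg/ml. Values of the members at 100 µg/ml are therefore given as a description, without p-values, and the members called there by the fit over all genes are counted only beside the share of all genes called.

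The cells were BV2, an immortalized mouse microglial cell line, and the particles were MNPs@SiO2(RITC), which have a cobalt ferrite core in a silica shell that carries the dye rhodamine B isothiocyanate. The 9 RNA-seq libraries fall into 3 groups of 3, namely non-treated control cells, cells given 10 µg/ml for 12 h and cells given 100 µg/ml for 12 h, and the labels name the same line and no other agent for all of them. The labels do not say whether the libraries of a group came from separate cultures, so the spread between them may be technical. No group received particles without iron, silica alone or a soluble iron salt in these libraries, so an effect of iron and an effect of the particle cannot be told apart.

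Iron enters most cells as transferrin bound to the transferrin receptor and leaves the endosome through the transporter DMT1. What is not used is held in ferritin, a hollow shell of heavy and light chains, and is set free when the receptor NCOA4 takes ferritin to the lysosome. Iron leaves the cell through ferroportin and is oxidized by ceruloplasmin to load transferrin. Macrophages and microglia also take iron from haemoglobin, whose haem is opened by heme oxygenase 1. Iron regulatory proteins bind hairpins called iron-responsive elements (IREs) in some of these mRNAs when iron is scarce. In a 5′ untranslated region (UTR) the binding holds back translation, and in the 3′ UTR of Tfrc it protects the mRNA from decay, so ferritin protein can change without its mRNA.

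The IREs are shown because they are the sequences through which iron regulatory proteins act on these mRNAs. They were searched in the GENCODE M21 transcripts of GRCm38 on the sense strand, outside the coding sequence, as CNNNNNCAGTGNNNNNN in which the 5 bases before and the 5 bases after the CAGTGN loop pair with each other. A match was found in 4 of the 10 members, with 7 matches in all, and in 175 of 22527 genes with a coding sequence (0.777%). Each sequence has 27 bases and is written as DNA, with the CAGTGN loop in capitals. Fth1, Ftl1 and Slc40a1 carried 1 match each, in the 5′ UTR, and Tfrc carried 4, all in the 3′ UTR.
Fth1, 5′ UTR, chr19:9982733-9982759, plus strand: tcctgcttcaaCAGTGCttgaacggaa
Ftl1, 5′ UTR, chr7:45459780-45459806, minus strand: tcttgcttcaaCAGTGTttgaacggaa
Slc40a1, 5′ UTR, chr1:45925466-45925492, minus strand: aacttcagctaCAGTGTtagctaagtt
Tfrc, 3′ UTR, chr16:32631220-32631246, plus strand: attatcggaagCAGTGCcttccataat
Tfrc, 3′ UTR, chr16:32631599-32631625, plus strand: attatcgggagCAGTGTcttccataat
Tfrc, 3′ UTR, chr16:32631664-32631690, plus strand: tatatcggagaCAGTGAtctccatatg
Tfrc, 3′ UTR, chr16:32631711-32631737, plus strand: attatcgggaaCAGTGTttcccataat
A match with full pairing outside the coding sequence was not found in the other members searched. This says nothing about other forms of the element, and a form of Slc11a2 mRNA is known to carry an IRE. A match is a description of the sequence and not a measured binding site.

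Values are FPKM, the fragments of a gene divided by its transcript length and by the mapped fragments of the library, so levels of different genes can be compared. The FPKM of a library summed to between 473547 and 522812. The depth is not given with FPKM, and steps between low values put it at about 11.9 to 15 M (mega) fragments per library. The macrophage genes Csf1r, Cd68, Itgam and Ptprc were high in every library, while Cx3cr1 and P2ry12 of resting microglia did not exceed 0.0773 and 0.146 FPKM. Tmem119, another microglia marker, lay between 1.87 and 2.65 FPKM. The summed level of 8 microglia and macrophage markers was 668 to 743 FPKM in control cells, 674 to 713 at 10 µg/ml and 637 to 696 at 100 µg/ml, and most of it was Cd68. Of the 8 markers, 3 were lower in all libraries at 100 µg/ml than in control cells, where 11.4% of all genes tested were. Csf1r was at 138 to 145 FPKM in control cells and 116 to 128 at 100 µg/ml, Ptprc at 73.3 to 74.2 and 59.9 to 73.0, and Aif1 at 6.22 to 7.09 and 2.76 to 4.92. Their part in the differences of the iron genes was not tested. Alb and Ttr of hepatocytes and Hbb-bs of erythroid cells were at 0 in all 9 libraries, and so were all 3 neuron markers.

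One library stood apart from the others. In replicate 1 at 100 µg/ml, genes with a longest transcript under 1000 nt lay at a median of 0.18 above their mean over the 9 libraries on the log2(FPKM + 1) scale, and genes of 5000 nt and over lay 0.20 below it (median -0.20). Transcripts from 2500 nt to just under 5000 nt, the class of Cp, Tfrc, Slc11a2, Slc11a1, Slc40a1 and Ncoa4, had a median deviation of 0.0014 in this library. The class is wide, and Tfrc (4890 nt), Ncoa4 (4733 nt), Cp (4564 nt) and Slc11a2 (4415 nt) lie towards its upper end. Its median therefore does not show that these genes were free of the trend. Fth1, Hp and Hmox1 fall in the class from 1000 nt to just under 2500 nt, whose median in this library was 0.15, and Ftl1 falls in the shortest class. These classes rest on the longest annotated transcript (2062 nt for Fth1), and whether it was the one expressed was not tested. Values at 100 µg/ml are therefore also given without this library.

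**Figure D1:**
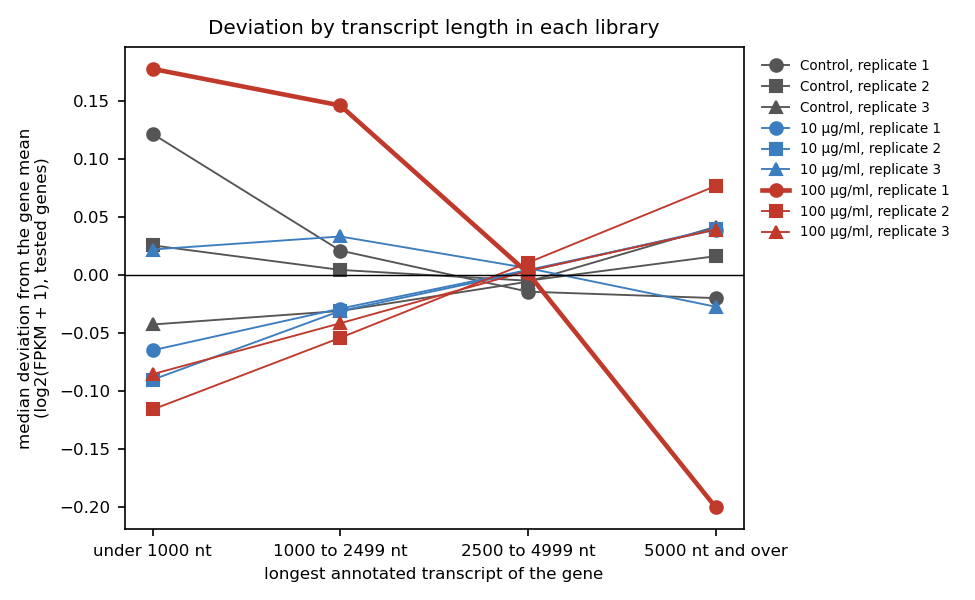
Median deviation of the tested genes from their own mean over the 9 libraries (y axis, log2(FPKM + 1)) by class of longest annotated transcript (x axis), with 1 line per library, grey for control, blue for 10 µg/ml and red for 100 µg/ml. The thick red line of replicate 1 at 100 µg/ml runs from 0.18 for the shortest class to -0.20 for the longest.

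Differences between groups were estimated with limma on log2(FPKM + 1) for the 11161 genes whose FPKM averaged 1 or more over the libraries, and a gene was called at a Benjamini-Hochberg adjusted p under 0.05. All 10 members passed the filter on low values. Cp passed with a mean of 1.12 FPKM over the 9 libraries, and only its control libraries and 1 library at 10 µg/ml were above 1 FPKM. At 100 µg/ml against control, 3 of the 10 members were called, Cp, Hp and Slc11a2, all lower, where 2.11% of all genes tested were called and 1.41% were called lower. Because the members were chosen with this contrast known, nothing is read from that count. The same holds for the median log2 fold change of the members, which was -0.15, beside -0.0016 over all genes.

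Cp and Hp had the largest differences among the members. Cp encodes ceruloplasmin, the copper ferroxidase that works with ferroportin (ENSMUSG00000003617, chr3:19957054-20009145 of GRCm38, plus strand). Its level was 2.48, 2.26 and 1.42 FPKM in the control libraries, 0.806, 1.11 and 0.813 FPKM at 10 µg/ml and 0.558, 0.470 and 0.146 FPKM at 100 µg/ml. No library of one group overlapped with a library of another, and the order ran from control through 10 to 100 µg/ml. The means were 2.05 ± 0.557 FPKM in control cells, 0.908 ± 0.171 at 10 µg/ml and 0.391 ± 0.217 at 100 µg/ml (SD, n = 3 each). The mean at 100 µg/ml was 0.191 times that of control cells. The fitted log2 fold change was -1.13 ± 0.19 (SE), which understates the difference because 1 FPKM was added to such low values, and with 0.1 FPKM added it was -2.22.

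In bulk RNA of this kind, fewer cells with the mRNA and less of it per cell cannot be told apart. Cp rested on few fragments. At the estimated depths and with the longest annotated transcript as length, the control libraries held about 141.4, 143.1 and 89.5 fragments of Cp. Those at 10 µg/ml held about 48.5, 66.6 and 48.2, and those at 100 µg/ml about 38.2, 25.5 and 8.9. Without replicate 1 at 100 µg/ml the mean of the treated libraries was 0.308 FPKM. Its gene overlaps Hps3 on the opposite strand, which had a mean of 16.0 FPKM and lay between 14.7 and 17.5 FPKM in all libraries.

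Hp encodes haptoglobin, which captures free haemoglobin for uptake (ENSMUSG00000031722, chr8:109575130-109579172, minus strand). It was listed at 9.51, 9.02 and 9.41 FPKM in control cells, 7.48, 7.45 and 8.79 FPKM at 10 µg/ml and 3.60, 2.66 and 4.13 FPKM at 100 µg/ml. The control libraries lay close together (9.31 ± 0.257 FPKM, SD, n = 3), and every library at 10 µg/ml was below all of them. The libraries at 100 µg/ml were lower again, with a mean of 3.46 ± 0.744 FPKM against 7.91 ± 0.764 at 10 µg/ml (SD, n = 3 each). The mean at 100 µg/ml was 0.372 times that of control cells, and without replicate 1 it was 3.40 FPKM. The fitted log2 fold change was -1.22 ± 0.12 (SE) against control and -1.01 ± 0.12 against 10 µg/ml. Cd163, the receptor that takes up the haptoglobin and haemoglobin complex, was at 0 in all libraries.

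**Figure D2:**
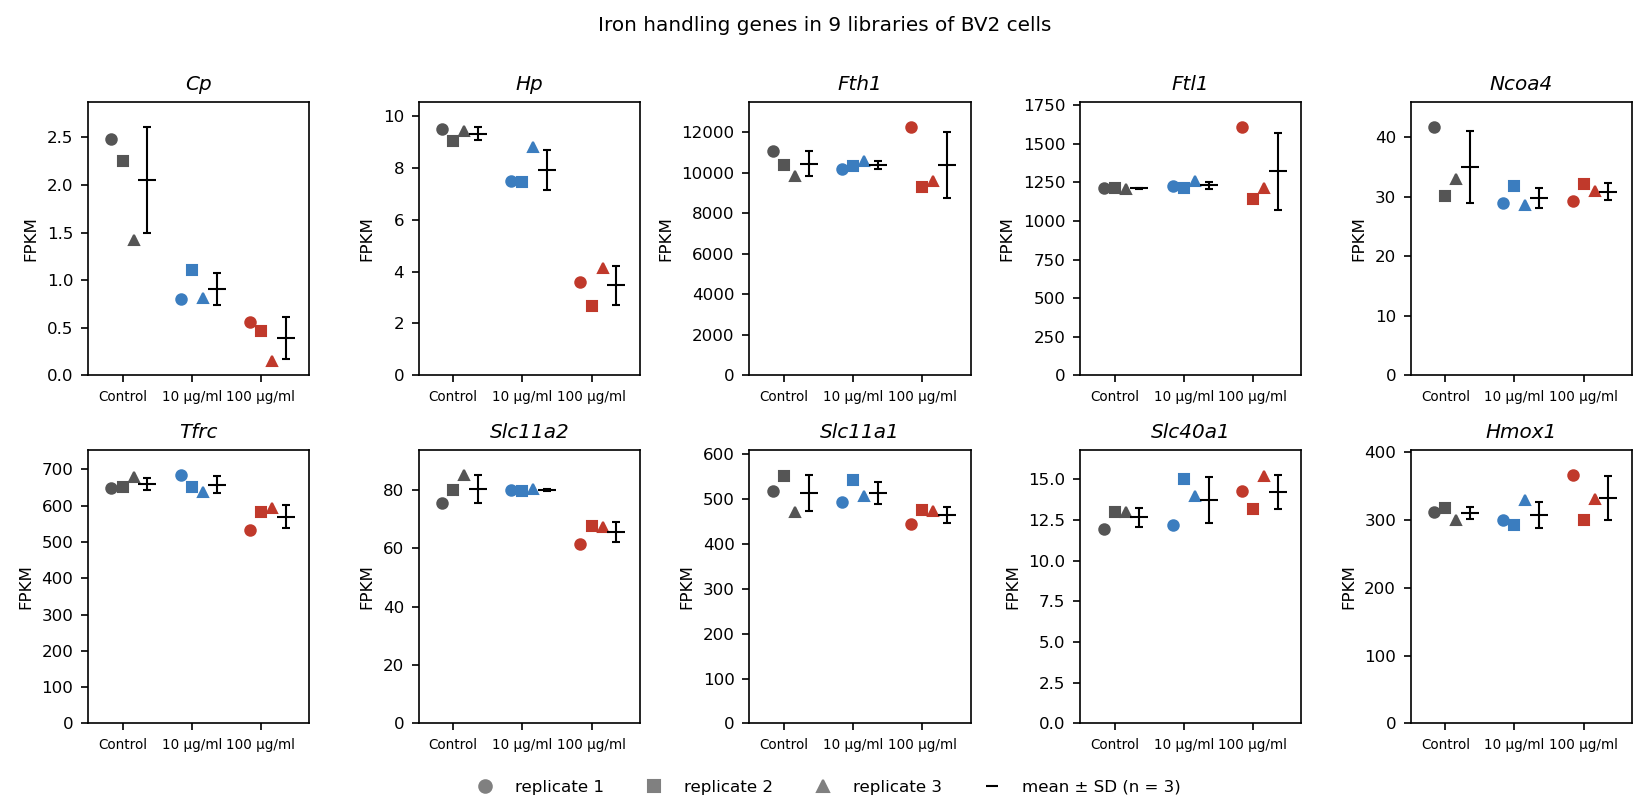
FPKM (y axis, from 0) of the 10 iron handling genes in each library by group (x axis), with 1 symbol per replicate number and the mean ± SD of 3 libraries in black. Cp and Hp step down from control to 100 µg/ml without overlap, the 3 values of Tfrc and of Slc11a2 at 100 µg/ml lie below the 6 others, and replicate 1 at 100 µg/ml (circle) has the highest value of Fth1, Ftl1 and Hmox1.

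The ferritin genes were the most abundant members and their groups overlapped. Fth1, the heavy chain with ferroxidase activity (ENSMUSG00000024661, chr19:9982703-9985092, plus strand), had the highest mean FPKM of all genes in the table. Its level was 11074, 10384 and 9831 FPKM in control cells, 10183, 10325 and 10575 FPKM at 10 µg/ml and 12245, 9271 and 9590.2 FPKM at 100 µg/ml. The treated range at 100 µg/ml held the whole control range, and the log2 fold change was -0.02 ± 0.11 (SE). Both other libraries at 100 µg/ml lay below all control libraries once replicate 1 was left out, with a log2 ratio of means of -0.15. Fth1 alone made up 1.95% to 2.34% of the summed FPKM of a library, and the 10 members together 2.50% to 2.93%.

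Ftl1, the light chain that aids mineral formation in the ferritin shell (ENSMUSG00000050708, chr7:45457944-45459884, minus strand), ranked 17 among all genes by mean FPKM. It was listed at 1213, 1213 and 1207 FPKM in control cells, 1229.9, 1212 and 1257 FPKM at 10 µg/ml and 1609, 1141 and 1217 FPKM at 100 µg/ml. The high value was again replicate 1, and its cause was not tested. After a correction for transcript length the log2 fold change was 0.13 ± 0.06 (SE). Without the correction it was 0.11 ± 0.11, and the log2 ratio of means without replicate 1 was -0.04. The Fth1 to Ftl1 ratio, in FPKM, was 9.13, 8.56 and 8.14 in control cells, 8.28, 8.52 and 8.41 at 10 µg/ml and 7.61, 8.13 and 7.88 at 100 µg/ml. The highest ratio at 100 µg/ml, 8.126, and the lowest in control cells, 8.142, were nearly equal.

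Both ferritin genes have copies elsewhere in the genome, and the authors' correction shared out reads that map to several places. Of the genes named as copies, Ftl2 was between 0.729 and 2.12 FPKM, Fth-ps2 between 0 and 0.774 FPKM, and Fthl17 at 0. How reads were split between the copies and the parent genes is uncertain, but these levels are small beside those of Fth1 and Ftl1.

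Ncoa4, the receptor that delivers ferritin to the lysosome (ENSMUSG00000056234, chr14:32159865-32179855, plus strand), was at 41.7, 30.2 and 33.0 FPKM in control cells. It was at 29.0, 31.8 and 28.7 FPKM at 10 µg/ml and 29.4, 32.2 and 30.9 FPKM at 100 µg/ml. The groups overlapped, and control replicate 1 was the one high library. The log2 fold change was -0.21 ± 0.11 (SE) at 10 µg/ml and -0.16 ± 0.11 at 100 µg/ml, and without control replicate 1 these were -0.080 and -0.034, so the differences rested mostly on that library. The mean at 100 µg/ml was 31.6 FPKM without replicate 1 of that group.

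Among the uptake genes, Tfrc and Slc11a2 were lower at 100 µg/ml than in every other library and level at 10 µg/ml. Tfrc, the transferrin receptor (ENSMUSG00000022797, chr16:32608920-32632794, plus strand), was at 648, 653 and 679.9 FPKM in control cells, 684, 653 and 638 FPKM at 10 µg/ml and 534, 583 and 593 FPKM at 100 µg/ml. The 3 libraries at 100 µg/ml lay below the 6 others, with a mean of 570.3 ± 31.7 FPKM against 660.3 ± 17.1 in control cells (SD, n = 3 each). The log2 fold change was -0.21 ± 0.06 (SE), and -0.20 ± 0.04 after the correction for transcript length. The mean at 100 µg/ml was 0.864 times that of control cells, and the log2 ratio of means was -0.17 without replicate 1.

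Slc11a2 encodes DMT1, the proton-coupled transporter that carries ferrous iron out of the endosome (ENSMUSG00000023030, chr15:100387898-100425072, minus strand). It was at 75.7, 80.2 and 85.1 FPKM in control cells, 80.1, 79.8 and 80.3 FPKM at 10 µg/ml and 61.7, 67.6 and 67.5 FPKM at 100 µg/ml. Control cells and cells at 10 µg/ml had close means, 80.3 ± 4.75 and 80.1 ± 0.254 FPKM, and all libraries at 100 µg/ml were lower (65.6 ± 3.39, SD, n = 3). The log2 fold change was -0.29 ± 0.06 (SE), and the log2 ratio of means was -0.25 without replicate 1 at 100 µg/ml. The values of Tfrc and Slc11a2 had a Pearson r of 0.958 over the 9 libraries on the log2 scale, where both share the library and the group. This pair was picked as the highest among all pairs of members. Other genes tested reached a higher r, up to 0.996 with Tfrc and 0.992 with Slc11a2.

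Slc11a1, the related transporter NRAMP1 of the phagosome membrane (ENSMUSG00000026177, chr1:74375195-74386062, plus strand), was at 517, 552 and 472 FPKM in control cells, 493, 542 and 506 FPKM at 10 µg/ml and 445, 477 and 474 FPKM at 100 µg/ml. Its treated libraries overlapped with the lowest control library but lay below all libraries at 10 µg/ml. The difference of 100 µg/ml from control was -0.14 ± 0.07 (SE) on the log2 scale, and that from 10 µg/ml was also -0.14 ± 0.07. Without replicate 1 the mean at 100 µg/ml was 475 FPKM.

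Slc40a1 encodes ferroportin, the iron exporter (ENSMUSG00000025993, chr1:45908068-45926523, minus strand), and was the one member whose libraries at 100 µg/ml were all higher than control. It was at 12.0, 13.0 and 13.0 FPKM in control cells, 12.2, 15.0 and 13.9 FPKM at 10 µg/ml and 14.3, 13.2 and 15.2 FPKM at 100 µg/ml. The lowest treated library, at 13.17 FPKM, was just above the highest control library, at 13.01. The log2 fold change was 0.16 ± 0.08 (SE), and the mean without replicate 1 was 14.2 FPKM, as with it. The ratio of Tfrc to Slc40a1, uptake to export in FPKM, was 52.2 ± 1.92 in control cells, 48.4 ± 6.72 at 10 µg/ml and 40.2 ± 3.60 at 100 µg/ml (SD, n = 3 each). The ratios at 100 µg/ml, 37.4, 44.3 and 39.0, were all below the lowest control ratio of 50.3, and those at 10 µg/ml, from 43.4 to 56.0, overlapped with both. With Tfrc lower and Slc40a1 higher in all libraries at 100 µg/ml, this separation was bound to occur and adds nothing to their values. The ratio of Tfrc to Fth1, at 0.0436, 0.0629 and 0.0619 at 100 µg/ml, overlapped with control cells (0.0585, 0.0629 and 0.0692).

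Hmox1, the inducible enzyme that opens the haem ring and frees its iron (ENSMUSG00000005413, chr8:75093591-75100596, plus strand), was at 312, 317 and 300.1 FPKM in control cells. It was at 299, 293 and 329 FPKM at 10 µg/ml and 366, 300.4 and 331 FPKM at 100 µg/ml. The groups overlapped, and replicate 1 held the highest value. For 100 µg/ml the log2 fold change was 0.10 ± 0.08 (SE), and the log2 ratio of means was 0.03 without that library.

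**Figure D3:**
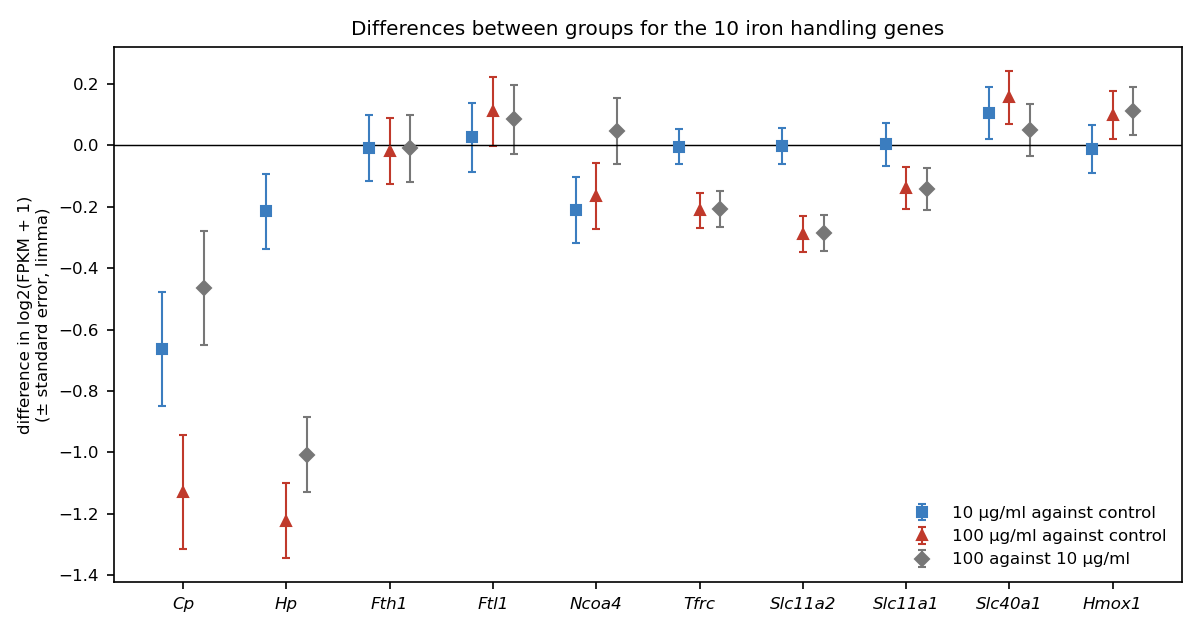
Difference in log2(FPKM + 1) between groups (y axis, point and standard error from limma) for each of the 10 genes (x axis), in blue for 10 µg/ml against control, red for 100 µg/ml against control and grey for 100 against 10 µg/ml. Cp and Hp reach -1.13 and -1.22 at 100 µg/ml, and the other 8 genes lie between -0.29 and 0.16.

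At 10 µg/ml against control, 0 of the 10 members were called by limma, as were 0% of all genes tested, and each member had an adjusted p of 1.0. This comparison shares its control libraries with the one at 100 µg/ml. Before adjustment, 1 member had a p under 0.05, Cp, where 3.28% of all genes did. Cp had a log2 fold change of -0.66 ± 0.19 (SE) and a mean 0.443 times that of control cells. Hp had a log2 fold change of -0.21 ± 0.12 and a mean 0.849 times that of control cells. The comparison is no independent test of Cp, which passed the filter on low values through its control libraries. Cp and Hp were lower in all 3 libraries, where 4.61% of all genes tested were, and the other 8 overlapped, with log2 fold changes between -0.21 and 0.11.

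At 100 against 10 µg/ml, 1 of the 10 members was called, Hp, where 0.851% of all genes were called and 0.636% were called lower. In 5 members all libraries at 100 µg/ml were below all at 10 µg/ml, namely Cp, Hp, Tfrc, Slc11a2 and Slc11a1, where 9.99% of all genes were. At 100 µg/ml against control, 4 members were lower in all libraries, Cp, Hp, Tfrc and Slc11a2, and 1 was higher in all, Slc40a1, where 11.4% and 12.5% of all genes were. These counts belong to the contrasts the choice had in view and are given only beside that background.

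The genes whose pattern over the 9 libraries was most like that of Hp were Prdx6, Ctsc and Anxa3, with a Pearson r of 0.989, 0.989 and 0.982 on the log2(FPKM + 1) scale. Prdx6, a peroxiredoxin, had means of 193, 182 and 129.7 FPKM in control cells and at 10 and 100 µg/ml. Ctsc, the lysosomal protease cathepsin C, had 202, 187 and 139 FPKM in the same order. For Cp the 3 genes were Acyp1, Gm4737 and Snx2, with r of 0.952, 0.948 and 0.944. Cp and Hp themselves had an r of 0.773. All these values share the 9 libraries and their groups, and the genes were picked as the closest of the 11161 tested.

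The other genes of iron handling gave no call. A wider list of 64 genes was drawn up without the members, in 6 groups, and with earlier results of these data known. Of these genes, 63 were found, 2 by identifier because they are listed under an older name. A total of 43 passed the filter on low values. By limma, 0 of the 43 were called in each of the 3 comparisons, beside 2.11% of all genes at 100 µg/ml against control, 0% at 10 µg/ml against control and 0.851% at 100 against 10 µg/ml. Before adjustment, 12 of the 43 had a p under 0.05 at 100 µg/ml against control, 8 higher and 4 lower, where 19.4% of all genes did. The same held for 2 of the 43 at 10 µg/ml against control (3.28% of all genes) and for 3 at 100 against 10 µg/ml (14.3% of all genes). The median log2 fold change at 100 µg/ml was 0.01, and single genes lay between -0.58 and 0.62.

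In the group of uptake and reduction, 6 of 15 genes were tested. Lrp1, a large endocytic receptor that also takes up haem bound to hemopexin, had a log2 fold change of -0.08 ± 0.15 (SE) at 100 µg/ml, and its replicate 1 there was the lowest library at 79.4 FPKM. Trf, transferrin, had 0.09 ± 0.07 at a mean of 70.4 FPKM over all libraries. Lcn2, lipocalin 2, which binds iron-carrying siderophores, was named after its values were seen. It was at 4.87, 3.33 and 4.04 FPKM in control cells, 3.70, 3.99 and 3.34 FPKM at 10 µg/ml and 2.33, 2.87 and 1.99 FPKM at 100 µg/ml. All treated libraries at 100 µg/ml were below control, with a log2 fold change of -0.58 ± 0.14 (SE) and an adjusted p of 0.0723, from 0.0544 to 0.211 over the alternatives.

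The cytosolic iron chaperones Pcbp1 and Pcbp2, which deliver iron to ferritin, were the most abundant genes of the wider list. Pcbp1 was at 137, 141 and 139 FPKM in control cells and 185, 153 and 146 FPKM at 100 µg/ml, with replicate 1 again the highest. Its log2 fold change was 0.20 ± 0.08 (SE), with an adjusted p of 0.229, and that of Pcbp2 was -0.01 ± 0.07. Among the export genes, Flvcr1, a haem exporter listed under the name Mfsd7b, had 0.12 ± 0.05 with an adjusted p of 0.1997 and App, the amyloid precursor protein, had 0.01 ± 0.05.

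Of the regulators, 6 of 12 were tested, and Hamp, which encodes the hormone hepcidin, was at 0 in all libraries. Ireb2, iron regulatory protein 2, had a log2 fold change of -0.03 ± 0.08 (SE) at 100 µg/ml. Fbxl5, the iron-sensing ubiquitin ligase subunit that marks it for degradation, had -0.16 ± 0.07 with an adjusted p of 0.235. Aco1, iron regulatory protein 1, named after its values were seen, was at 29.8, 31.4 and 31.5 FPKM in control cells and 32.8, 35.0 and 37.0 FPKM at 100 µg/ml. Its libraries did not overlap, the log2 fold change was 0.17 ± 0.06 and the adjusted p was 0.146, with a range over the alternatives from 0.0443, when replicate 1 at 100 µg/ml was left out, to 0.351.

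All 12 genes of haem synthesis and breakdown were tested, and 8 had a log2 fold change above 0. Blvra, biliverdin reductase A, had -0.10 ± 0.10 (SE) and Slc48a1, a haem transporter of the lysosome, -0.01 ± 0.06. Of the mitochondrial and iron-sulphur cluster genes, 15 were tested, and Abcb10 was not analysed here. Nfs1, the cysteine desulphurase that supplies the sulphur, had -0.12 ± 0.09, and Glrx5, which passes clusters on, had 0.17 ± 0.11. Ciao1, a part of the machinery that places clusters in cytosolic proteins, had the highest log2 fold change of the list and was named after its values were seen. It was at 18.6, 25.2 and 18.4 FPKM in control cells, 25.1, 29.4 and 30.0 FPKM at 10 µg/ml and 37.1, 29.1 and 30.4 FPKM at 100 µg/ml. The log2 fold change was 0.62 ± 0.14 (SE) with an adjusted p of 0.0601, and over the alternatives the adjusted p ran from 0.0298, after a correction for transcript length, to 0.195.

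**Figure D4:**
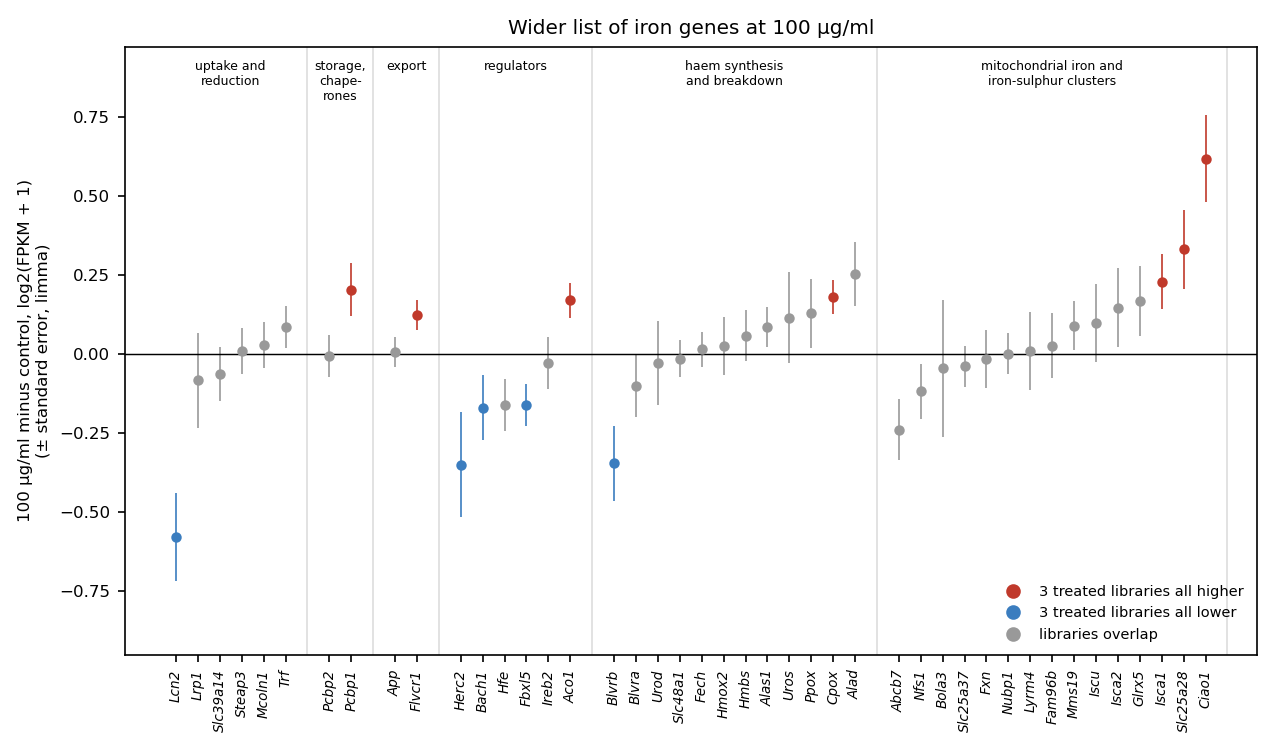
Difference between 100 µg/ml and control in log2(FPKM + 1) (y axis, point and standard error from limma) for the 43 tested genes of the wider iron list (x axis), in 6 groups, with genes whose 3 treated libraries were all higher than control in red, all lower in blue and overlapping in grey. The points scatter around 0, from -0.58 for Lcn2 to 0.62 for Ciao1, and 0 of the 43 genes were called.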

How the data were processed

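The 9 libraries of BV2 cells were grouped by the treatment in their labels. Libraries were made from poly(A) RNA. After alignment with TopHat, the authors ran Cufflinks 2.1.1 with the gene models of Ensembl release 77 (GRCm38) and its multi-read and fragment-bias corrections, which gave the deposited FPKM. Coordinates of genes are those of the deposited table.

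The members and lists were chosen with earlier results of these data known. FPKM was transformed to log2(FPKM + 1), and the 11161 genes that averaged 1 FPKM or more were fitted with limma 3.58.1 in R 4.3.3 (lmFit, eBayes with trend, all 3 groups in one fit) and adjusted with the Benjamini-Hochberg procedure. The procedure was tested on simulated data. Tables were made with Python 3.11.15, pandas 2.3.3, numpy 2.4.6 and figures with matplotlib 3.10.9. Depth was estimated from steps of low values in 3635 genes with 1 transcript over 1500 nt. The depth chosen was the one that put the largest share of low values above 0 near whole fragments. At that depth, 74.2% to 82.3% of the 439 to 480 low values of a library lay within 0.25 of a whole fragment. A depth fixed beforehand would give 50% by chance, which is no fair comparison for a depth picked on this share. Fragment numbers are therefore approximate, and they take the longest annotated transcript of a gene as its length. The named genes were all members, the called genes and the 2 most abundant genes of each group of the wider list, the 3 genes most like Cp and Hp by Pearson r, and copies of the ferritin genes. Lcn2, Aco1, Ciao1, Cd163 and Hamp fall outside this rule and were named after their values were seen. Alternatives were a pseudocount of 0.1, no filter, median-of-ratios rescaling, a replicate block, only the 6 libraries compared, leaving out each library, and a lowess correction (span 0.3) for transcript length, chosen after seeing the data, on the 11076 tested genes with a length. Cuffdiff was not repeated. Protein and iron levels were not analysed here.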

Additional observations from a re-analysis of the deposited data

How the results depend on the processing

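Of the 450 fold changes of members recomputed over the 3 comparisons, the 5 that moved most were those of Cp and Hp with a pseudocount of 0.1, which were farther from 0. Smaller moves could still exceed the SE of the main fit. At 100 µg/ml against control, Ftl1 went from 0.11 ± 0.11 (SE) to -0.040 without replicate 1 at 100 µg/ml. Ncoa4 went from -0.16 ± 0.11 to -0.034 without control replicate 1. The members were chosen with these contrasts known, so their calls are no support for them under any setting. Calls among all genes at 100 µg/ml against control went from 236 to 22 with only the 6 libraries compared, 200 without a filter, 787 with the length correction and 31 to 539 when libraries were left out (539 without replicate 1 at 100 µg/ml), and the counts below changed alongside these totals. The number of members called there, 3, became 1 (Hp) with only the 6 libraries compared, 2 (Cp and Hp) without a filter, and 4 with the length correction, which added Tfrc. Leaving out each library gave 1 to 3, with Hp alone without control replicate 1, control replicate 2 or replicate 3 at 100 µg/ml, and Slc11a2 was among them only without replicate 1 at 100 µg/ml. At 100 against 10 µg/ml the count of 1 became 0 with only the 6 libraries and 3 (Hp, Tfrc and Slc11a2) with the length correction, and 0 to 1 when libraries were left out, with 0 without each library at 10 µg/ml. Calls among all genes in that comparison went from 95 to 6 with only the 6 libraries and 314 with the length correction. They ran from 8 to 191 when libraries were left out, so the member count changed alongside this total too. In the wider list, 0 genes called at 100 µg/ml against control became 1 with the length correction (Ciao1) and 0 to 1 when libraries were left out (Aco1 without replicate 1 at 100 µg/ml). The cause was not tested. Counts at 10 µg/ml against control stayed at 0 for both lists under all 15 alternatives.

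Same-numbered libraries showed no strong common deviation (r from -0.088 to 0.152 over 9 pairs, 1 over 0.1). Deviations were taken from means of only 3 libraries, so this check cannot show whether same-numbered libraries shared a batch. With a replicate block, 2 members (Cp and Hp) were called at 100 µg/ml against control and 1 (Hp) at 100 against 10 µg/ml, and 0 genes of the wider list. In the same order of comparisons, 106 and 13 of all genes tested were called with the block.

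Log2 fold changes near 0 at 100 µg/ml changed sign when single libraries were left out, from -0.215 to 0.0935 for Lrp1, -0.0593 to 0.0317 for Pcbp2, -0.0186 to 0.0332 for App, -0.0919 to 0.0695 for Ireb2 and -0.0511 to 0.0350 for Slc48a1, and among the members from -0.14 to 0.057 for Fth1 and -0.040 to 0.21 for Ftl1. With the length correction, Lrp1 had 0.0566 and Ireb2 0.000151. Genes with few fragments per library, such as Cp, are limited by depth.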
